A study of Mus musculus with 21 samples.

Results

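Histones package nuclear DNA, and the genes described here are the 62 histone genes with at least 1 count in at least 3 libraries of a mouse spiral ganglion data set. They were chosen by name: symbols that start with Hist1h, Hist2h, Hist3h or Hist4h, and the 7 replacement-type genes H1f0, H2afv, H2afx, H2afy, H2afz, H3f3a and H3f3b. The table of 21878 lines holds 74 such symbols, and 12 fell under the count rule. The 62 members are 6 H1, 14 H2A, 15 H2B, 9 H3 and 11 H4 genes with Hist names, plus the 7 replacement-type genes. All but Hist3h2ba and 1 H4 gene on chromosome 6 among the Hist-named members belong to the Hist1 cluster (43 members) or the Hist2 cluster (10 members).

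The RNA came from spiral ganglion neurons, which link the hair cells of the inner ear to the brainstem. They were drawn up by micropipette at postnatal day 7, and about 50 of them made up each of 21 libraries of polyadenylated RNA. The groups were DN-HCN2 apex (n = 4), truncated SK3 apex (n = 3), control apex (n = 4), DN-HCN2 base (n = 3), truncated SK3 base (n = 3) and control base (n = 4). All groups, control included, had an adeno-associated virus (AAV): its cargo was a site-mutated, dominant-negative HCN2 channel, a truncated SK3 channel that acts as a dominant negative, or EGFP in control. HCN2 passes cations when the membrane is hyperpolarized, and SK3 passes potassium when calcium rises in the cell. The labels name the control genotype as WT and the others by their dominant-negative effect, and the promoter and the cells that the virus reached are not given in the sources used here. Apex and base are the ends of the cochlea that respond to low and high sound frequencies. The labels call libraries biological replicates but do not tie them to animals. The p-values therefore weigh differences against the spread between these libraries. Whether apex and base libraries came from the same animals is not known.

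Most Hist-named genes are replication-dependent: dividing cells transcribe them in S phase, and their mRNA ends in a conserved stem-loop that the protein SLBP binds, without a poly(A) tail. Most replacement-type genes have introns or their own promoters, are transcribed outside S phase, and give ordinary polyadenylated mRNA. H2afx, counted among them here by name, also carries a stem-loop, printed below. Neurons no longer divide, and some Hist-named genes are known to yield longer, polyadenylated transcripts in cells that have left the cycle.

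Stem-loops are shown first, because they mark the mRNA ends of replication-dependent histone genes. The search took a loop of 4 bases that starts with TT between arms of 6 bases, GGNNNNTTNNNNNNCC in all, with exactly complementary arms, on the sense strand of the GENCODE M21 transcripts of GRCm38. It found a stem-loop in 38 of the 55 Hist-named members and in 1 of the 7 replacement-type members, H2afx, against 73 of 18593 other protein-coding genes (0.393%). Each is printed 5′ to 3′ with 5 flanking bases on either side, and capitals mark the stem-loop.
Hist3h2ba: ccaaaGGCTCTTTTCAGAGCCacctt
Hist1h1c: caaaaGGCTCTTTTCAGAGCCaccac
Hist2h2aa1: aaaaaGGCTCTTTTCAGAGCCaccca
Hist1h4d: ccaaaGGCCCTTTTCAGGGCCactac
H2afx: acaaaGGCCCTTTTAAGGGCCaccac

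The stem-loop of Hist3h2ba is the most common of the 7 variants found, present in 23 members. The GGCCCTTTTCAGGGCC variant of Hist1h4d occurred in 6 members, all of them H4 genes. Annotated transcripts ran on for more than 100 bases after the stem-loop in 14 of the 23 tested Hist-named members, in 7 of the 32 untested ones and in 1 of the 12 symbols under the count rule. A stem-loop was found at all in 19, 19 and 6 of these. The median run after a stem-loop was 369 bases in the tested members and 38 bases in the untested ones. Hist3h2ba had 169 annotated bases after its stem-loop. The single annotated transcripts of Hist1h2bc and Hist2h2be, both H2B genes, held no such stem-loop. Other members without one, such as Hist1h4k (312 bases) and Hist1h2bn (381 bases), have short annotated transcripts. Those may stop before the stem-loop, so its absence there can reflect the annotation. Counts per gene do not show which 3′ end a transcript used, so whether a member was polyadenylated here was not tested beyond the use of oligo-dT in the library protocol.

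Levels are counts per 1000000 counts (CPM), with library totals scaled by TMM, and between genes they are compared per kilobase (kb) of the longest annotated transcript. Replacement-type genes held the top of that order. H3f3b, which encodes a replacement H3, was highest at a mean of 360.7 CPM per kb over the 21 libraries, and H2afz, an H2A.Z gene, followed at 197 CPM per kb. H3f3a, which encodes the same replacement H3 protein as H3f3b, had 116 CPM per kb. H3f3b did not overlap H2afz in any library, while H2afz and H3f3a overlapped. Hist3h2ba, an H2B gene, came next at 87.5 CPM per kb, above H1f0, the linker histone of non-dividing cells, at 55.2 CPM per kb. Hist1h2bc (46.0 CPM per kb) and H2afv (44.2 CPM per kb) followed. Their ranges over the libraries overlapped each other, that of H1f0 and the wide range of Hist3h2ba, 17.4 to 164 CPM per kb. This order rests on means over construct and control libraries together. In the control libraries alone, the mean per kb of Hist3h2ba lay below those of H1f0, Hist1h2bc, H2afv and H2afx. H2afx, the variant that is phosphorylated at DNA breaks, had 30.7 CPM per kb, and H2afy, which encodes macroH2A1, had 19.8 CPM per kb. Hist2h2aa1 and Hist1h1c had 12.3 and 10.7 CPM per kb, and the other 51 members had at most 4.71 CPM per kb.

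**Figure D1:**
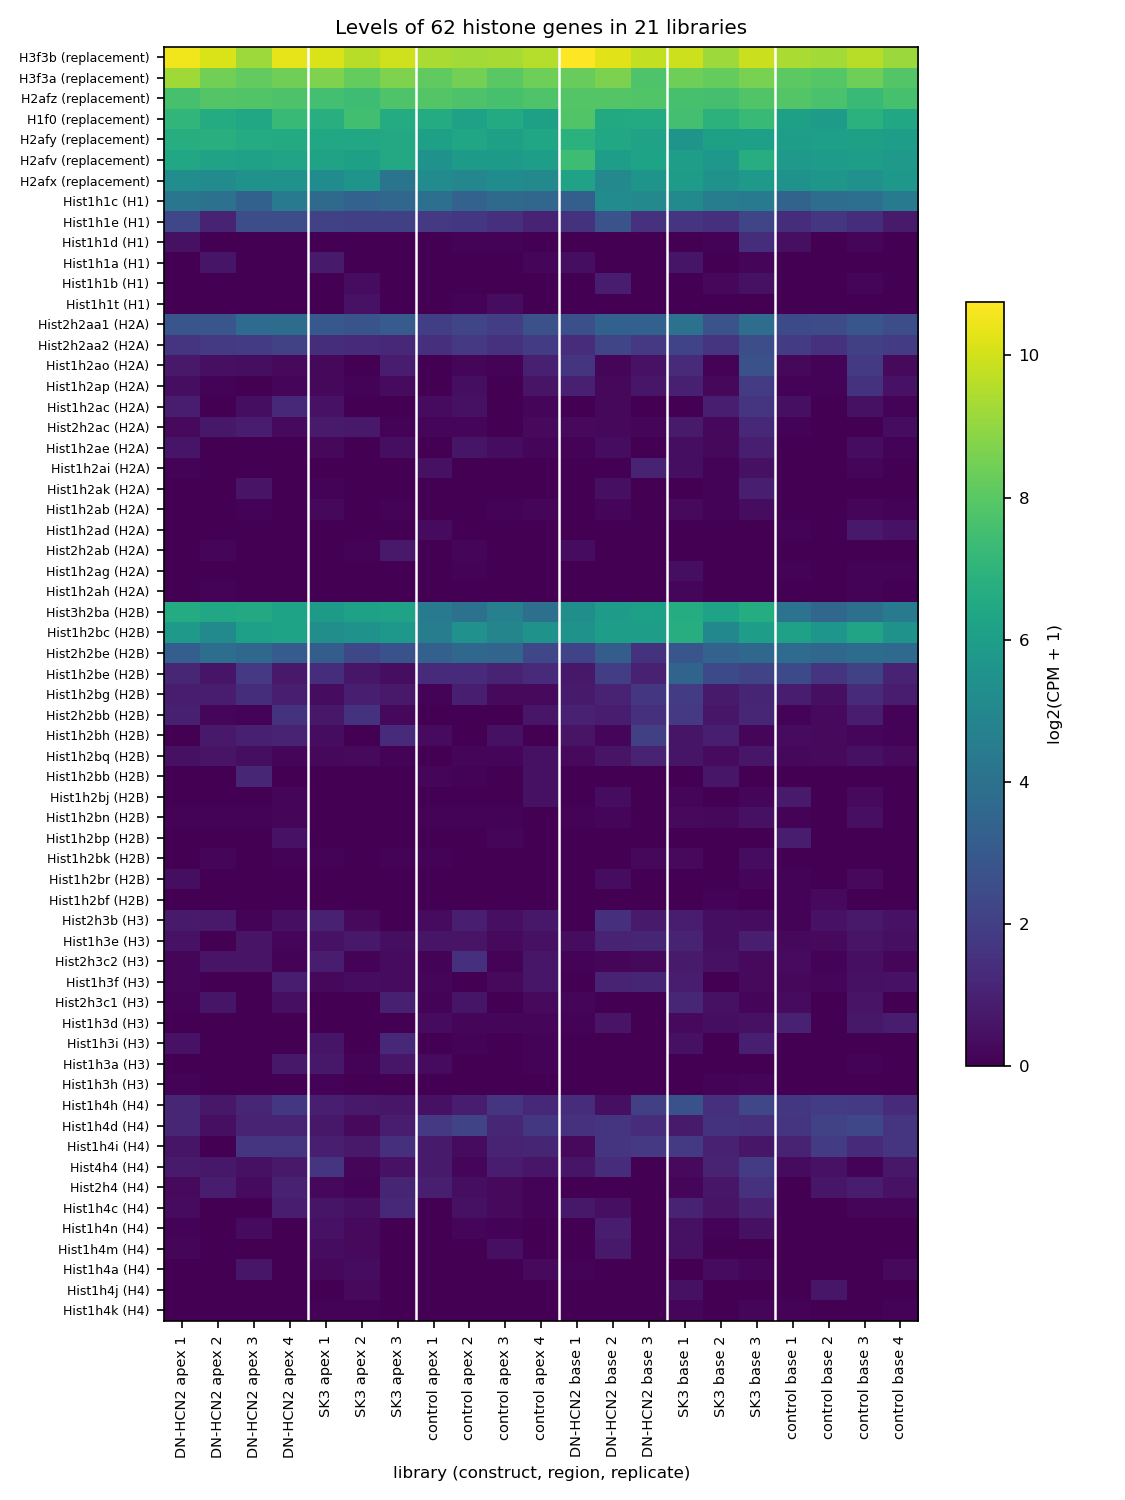
Levels of the 62 histone genes (rows, by class and then by mean level) in 21 libraries (columns, by group), as log2(CPM + 1); white lines part the groups. The 7 replacement-type genes and Hist3h2ba, Hist1h2bc and Hist1h1c stand out from a field near 0, and Hist3h2ba is brighter in the DN-HCN2 and truncated SK3 columns than in the control columns.

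Only 30 members had enough counts to be tested: the 7 replacement-type genes and 23 with Hist names (2 H1, 5 H2A, 7 H2B, 3 H3 and 6 H4). The 32 untested members had a mean of at most 0.341 CPM, and the highest count of any of them in a library was 22. Hist1h2aa and Hist1h2ba were at 0 in every library, where a limit of 3 counts allows up to 0.288 CPM in the shallowest library. Hist3h2a was also at 0, but it lies within the gene Trim17 on the same strand. How reads of that overlap were counted is not given, so no limit is set for Hist3h2a. Of the 55 Hist-named members, 42 shared at least 20% of the 50-base stretches of their longest transcript with other genes, and how the counter divided reads between such copies is not given in the sources used here. Reads of low Hist-named members are therefore uncertain as to their gene.

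The libraries were checked against markers before the groups were compared. Spiral ganglion neuron markers (16 genes) summed to between 11920 and 25480 CPM in the 21 libraries, and Schwann and satellite glia markers (14 genes) to between 9157 and 41760 CPM, so glial RNA was present throughout. Of DN-HCN2 base, replicates 2 and 3 held 1411 and 1661 CPM of macrophage markers, and no other library held more than 550.8 CPM. Supporting cell markers summed to 10760 CPM in replicate 1 of DN-HCN2 apex and 5495 CPM in replicate 3 of truncated SK3 apex, and replicate 1 of DN-HCN2 base had the highest fibroblast sum, 4461 CPM. In these pools, fewer cells of a type and less RNA per cell cannot be told apart. Total counts ran from 10411634 to 15138780 per library.

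Hist3h2ba was the member that changed most clearly under either construct. It encodes an H2B histone and lies on chromosome 11 at 58948920 to 58949533 (GRCm38, plus strand, ENSMUSG00000056895.4), as a single exon of 614 bases. In the apex its levels were 96.1, 86.3, 88.8 and 74.2 CPM in DN-HCN2 libraries and 56.4, 70.5 and 73.4 CPM in truncated SK3 libraries, against 20.8, 15.3, 24.8 and 14.5 CPM in control libraries. In the base they were 40.1, 61.1 and 68.5 CPM in DN-HCN2 libraries and 101, 74.8 and 99.0 CPM in truncated SK3 libraries, against 16.2, 10.7, 14.7 and 21.5 CPM in control libraries. The lowest library of either construct stood above the highest control library, so the groups did not overlap. Behind these levels were 151 to 1472 counts per library.

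Over both regions the level of Hist3h2ba was higher by 2.02 on the log2 scale under DN-HCN2 (SE 0.17, edgeR adjusted p = 2.276e-07), a fold of 4.06. Under truncated SK3 it was higher by 2.18 (SE 0.17, edgeR adjusted p = 9.042e-08), a fold of 4.53. Both comparisons use the same 8 control libraries and are given side by side for that reason. Within the apex the log2 differences from control were 2.20 under DN-HCN2 (SE 0.24, edgeR adjusted p = 1.898e-05) and 1.82 under truncated SK3 (SE 0.24, edgeR adjusted p = 0.0005145). Within the base they were 1.84 under DN-HCN2 (SE 0.24, edgeR adjusted p = 0.000489) and 2.54 under truncated SK3 (SE 0.25, edgeR adjusted p = 4.866e-06). All 6 calls held without any 1 library and under the 10 other settings tried, of which the one without macrophage-rich libraries leaves DN-HCN2 base with 1 library, assumed to vary like the other groups. Of its 50-base stretches 22.1% also occur in another gene, all in the nearby pseudogene Hist3h2bb-ps, for which the table has no line.

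DN-HCN2 and truncated SK3 were not told apart by Hist3h2ba, with a log2 difference of -0.16 over both regions (95% interval -0.51 to 0.19, edgeR adjusted p = 0.74). The order of the regions differed between constructs. Under DN-HCN2 the 3 base libraries lay below the 4 apex libraries, a log2 difference of base minus apex of -0.61 (SE 0.25, unadjusted p = 0.02154, edgeR adjusted p = 0.315). Under truncated SK3 the 3 base libraries lay above the 3 apex libraries, a difference of 0.45 (SE 0.26, edgeR adjusted p = 0.598). In control the regions overlapped, and the difference was -0.26 (SE 0.23, edgeR adjusted p = 1.0). The effect in the base minus that in the apex was -0.35 for DN-HCN2 (SE 0.33, edgeR adjusted p = 0.893) and 0.71 for truncated SK3 (SE 0.35, unadjusted p = 0.0519, edgeR adjusted p = 1.0). Neither interaction passed the test.

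**Figure D2:**
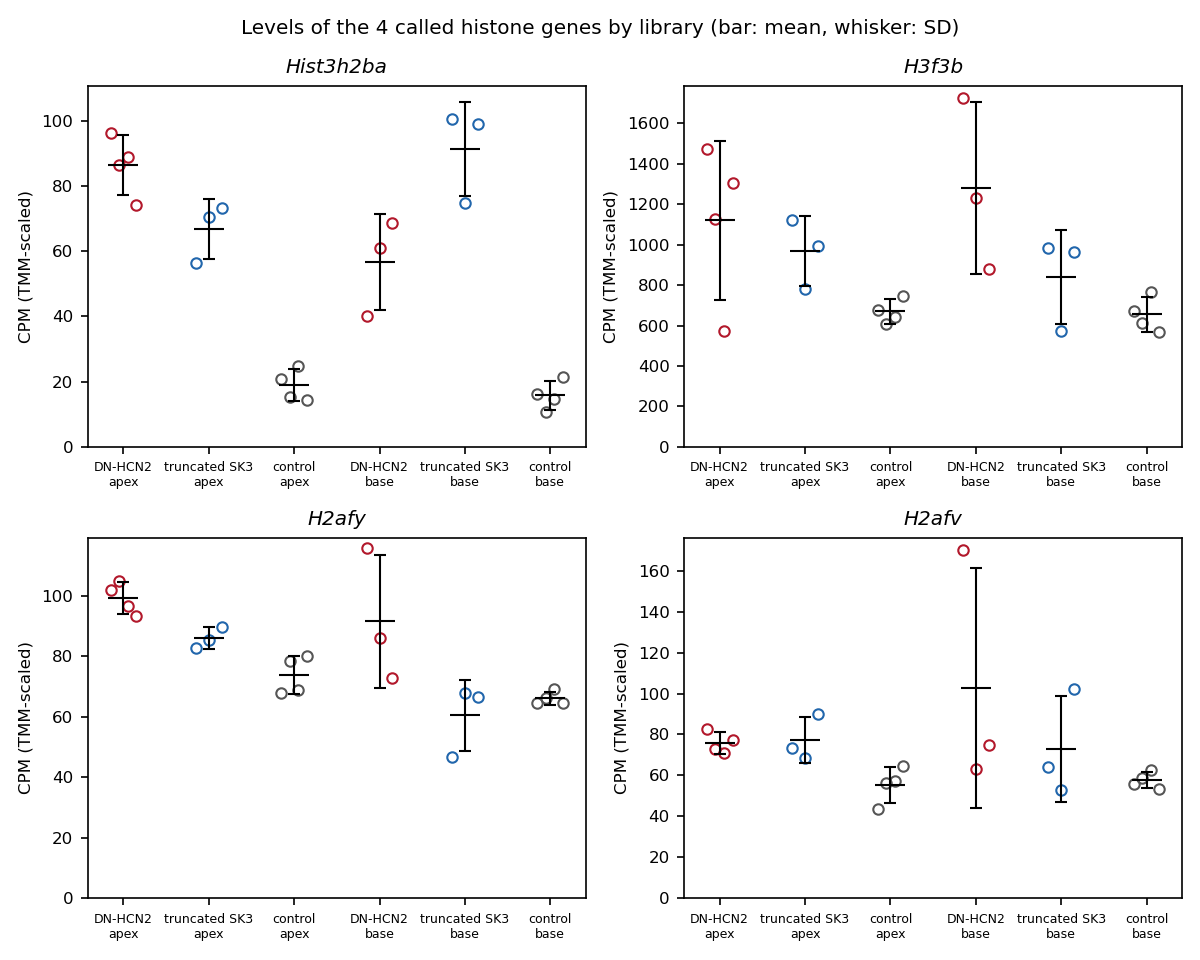
CPM of the 4 histone genes called under DN-HCN2, with 1 circle per library in 6 groups, the mean as a bar and the SD as a whisker (n = 3 or 4). Every DN-HCN2 and truncated SK3 library lies above every control library for Hist3h2ba, while H3f3b, H2afy and H2afv overlap between groups when the regions are pooled.

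The promoter of Hist3h2ba is printed because this gene carries the main result. It is the 250 bases before the RefSeq start (GRCm38.p6, chr11:58948661-58948910, plus strand), with CCAAT and TATAAA in capitals on either strand (ATTGG and TTTATA on the minus strand).
Hist3h2ba promoter: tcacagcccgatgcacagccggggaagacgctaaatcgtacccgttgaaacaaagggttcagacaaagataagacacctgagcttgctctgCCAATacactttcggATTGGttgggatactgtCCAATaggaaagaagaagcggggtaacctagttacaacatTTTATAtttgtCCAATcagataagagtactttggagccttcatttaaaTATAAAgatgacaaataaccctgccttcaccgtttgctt

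It holds 4 CCAAT boxes, a motif bound by the factor NF-Y, and 2 copies of TATAAA. RefSeq promoters of 300 bases (250 before the start and 50 after it) were at hand for 50 Hist-named members. CCAAT stood in 43 of these 50 (86.0%), against 37.4% of 32851 promoters of all genes, and at least 3 copies stood in 24 of the 50, against 3.37% of all. TATAAA stood in 30 of the 50 (60.0%), against 13.6% of all. The octamer ATTTGCAT, bound by POU factors and known from H2B promoters, stood in 9 of the 50 (18.0%), against 1.74% of all, and was not in the Hist3h2ba window. Nor did that window hold TGACGTCA, the cyclic AMP response element bound by CREB, which stood in 4 of the 50 members (8.0%) and in 1.79% of all promoters. Windows of some neighbouring members overlap, so a site can count for both, as may be so for TGACGTCA in Hist1h2ag and Hist1h2bj. The 50 promoters are therefore not 50 separate sequences. These matches are descriptions of letters on either strand and are not binding data.

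Under DN-HCN2, 4 of the 30 tested histone genes were called over both regions, all of them higher: Hist3h2ba, H3f3b, H2afy and H2afv. Among all 14968 tested lines the share called was 6.05%, with 2.45% higher, so 906 lines passed in this comparison. Only Hist3h2ba had all 7 DN-HCN2 libraries above all 8 control libraries, a pattern shown by 0.722% of tested genes. The log2 difference was positive in 23 of the 30 members (median 0.45), against 52.5% of all lines (median 0.03). Members near the count limit could pass it through the group where they were high, so these shares are descriptions. By class, 7 of 7 replacement-type genes, 2 of 2 H1, 3 of 5 H2A, 5 of 7 H2B, 3 of 3 H3 and 3 of 6 H4 genes had a positive difference.

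H3f3b had 1475, 1129, 572 and 1304 CPM in DN-HCN2 apex and 1124, 782 and 996 CPM in truncated SK3 apex, against 679, 607, 645 and 748 CPM in control apex. Base libraries of H3f3b held 1727, 1230.6 and 881 CPM under DN-HCN2 and 986, 574 and 963 CPM under truncated SK3, against 674, 611, 768 and 570.2 CPM in control. All DN-HCN2 libraries but replicate 3 of the apex stood above every control library. H3f3b rose by 0.85 on the log2 scale under DN-HCN2 (SE 0.18, edgeR adjusted p = 0.00741), and the call held without any 1 library. Under truncated SK3 the difference was 0.44 (SE 0.18), which did not pass (edgeR adjusted p = 0.382). H3f3b lies on chromosome 11 at 116021912 to 116027962, and 8.4% of its stretches occur elsewhere.

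H2afy, whose macroH2A1 product is enriched on silent chromatin, had 102, 105, 96.7 and 93.3 CPM in DN-HCN2 apex and 82.8, 85.3 and 89.9 CPM in truncated SK3 apex, against 67.8, 78.4, 68.9 and 80.1 CPM in control apex. Its base levels were 116, 86.1 and 72.9 CPM under DN-HCN2 and 46.9, 68.1 and 66.5 CPM under truncated SK3, against 64.7, 66.4, 69.1 and 64.6 CPM in control. Within each region all DN-HCN2 libraries stood above all control libraries. The share of all genes that separate like this within a region was not computed, so this and similar statements on other members are descriptions. H2afy rose by 0.45 on the log2 scale under DN-HCN2 (SE 0.11, edgeR adjusted p = 0.02099), while truncated SK3 gave a difference of 0.05 (SE 0.12, edgeR adjusted p = 0.955). DN-HCN2 against truncated SK3 gave 0.40 (SE 0.12, unadjusted p = 0.003036, edgeR adjusted p = 0.111). The DN-HCN2 call was lost by edgeR when replicate 1 of DN-HCN2 base was left out (adjusted p = 0.05878), and likewise replicate 1 of control apex, replicate 3 of control apex or replicate 4 of control base. H2afy overlaps the antisense gene Gm47071.

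H2afv, the other H2A.Z gene, had 82.8, 73.0, 70.8 and 77.5 CPM in DN-HCN2 apex and 73.2, 68.7 and 89.97 CPM in truncated SK3 apex, against 43.4, 56.4, 57.5 and 64.7 CPM in control apex. H2afv in the base stood at 169.9, 63.2 and 75.0 CPM under DN-HCN2 and 64.04, 52.9 and 102 CPM under truncated SK3, against 56.0, 58.7, 62.6 and 53.6 CPM in control. DN-HCN2 libraries stood above control libraries within each region, in the base by a narrow margin apart from replicate 1. H2afv rose by 0.64 on the log2 scale under DN-HCN2 (SE 0.18, edgeR adjusted p = 0.04102). The call was lost without any 1 of the 8 control libraries, of replicates 1, 2 and 4 of DN-HCN2 apex or of replicate 1 of DN-HCN2 base, and without that last library the difference was 0.35 (edgeR adjusted p = 0.144). The call was also lost, at a difference of 0.50, by limma-voom (adjusted p = 0.05049) and, at 0.56, with a correction for GC content and length (edgeR adjusted p = 0.0777). Under truncated SK3 the difference was 0.41 (SE 0.19, edgeR adjusted p = 0.453).

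Replicate 1 of DN-HCN2 base had the highest H3f3b, H2afy, H2afv and H1f0 levels of all 21 libraries, and it also had the lowest sum of spiral ganglion neuron markers (11920 CPM) and the highest of fibroblast markers. The part of those cells in the 3 calls was not tested. Without the pair of libraries that hold over 5000 CPM of supporting cell markers, the log2 differences were 0.77 for H3f3b (edgeR adjusted p = 0.02034), 0.44 for H2afy (edgeR adjusted p = 0.04096) and 0.62 for H2afv (edgeR adjusted p = 0.06846). Leaving out the pair that hold over 1000 CPM of macrophage markers keeps 1 library of DN-HCN2 base, replicate 1 with its high levels, so that fit bears little on these genes.

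The other replacement-type genes were not called. H1f0 had 136, 97.8, 86.1 and 151 CPM in DN-HCN2 apex and 106, 181 and 97.3 CPM in truncated SK3 apex, against 96.7, 69.9, 94.3 and 68.8 CPM in control apex. Base levels of H1f0 were 228, 90.4 and 94.1 CPM under DN-HCN2 and 184, 118 and 151 CPM under truncated SK3, against 68.9, 60.8, 114 and 87.5 CPM in control. Every truncated SK3 library stood above every control library of its region, by narrow margins (97.3 against 96.7 CPM in the apex, 118 against 114 CPM in the base). The log2 differences of H1f0 were 0.62 under DN-HCN2 (SE 0.21, edgeR adjusted p = 0.082) and 0.75 under truncated SK3 (SE 0.22, edgeR adjusted p = 0.148). Without replicate 1 of DN-HCN2 base the DN-HCN2 difference was 0.33 (edgeR adjusted p = 0.292). DESeq2 called both, with adjusted p = 0.03775 under DN-HCN2 and 0.04588 under truncated SK3. H1f0 overlaps the antisense gene Gm49544, and reads of the pair cannot be told apart without strand.

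H3f3a spanned 289 to 592 CPM in DN-HCN2 apex and 292 to 409 CPM in truncated SK3 apex, against 255.96 to 361 CPM in control apex. Its base ranges were 221 to 395 CPM under DN-HCN2 and 295 to 383 CPM under truncated SK3, against 233 to 329 CPM in control, and all groups overlapped. Over both regions H3f3a differed by 0.28 under DN-HCN2 and 0.31 under truncated SK3 on the log2 scale. H2afz, with a range of 155 to 237 CPM over all libraries, differed by 0.12 and -0.07. H2afx, with a range of 16.7 to 72.6 CPM, differed by 0.18 and 0.06, and the sign of each was turned by a correction for GC content and length. H2afz shares 69.6% and H3f3a 30.3% of stretches with other genes, and H3f3a and H2afx have overlapping genes on the opposite strand.

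**Figure D3:**
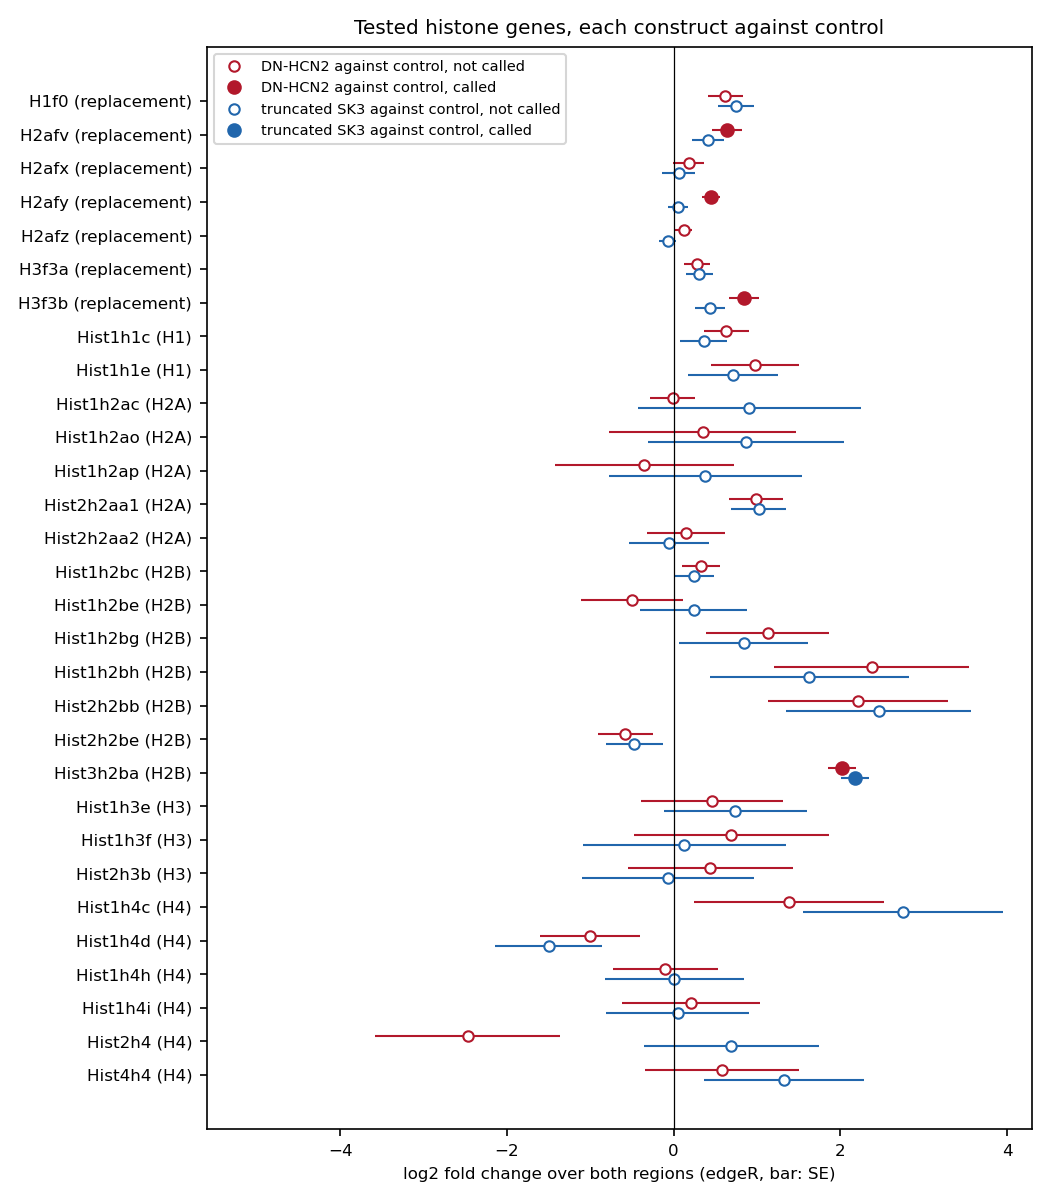
Log2 fold changes over both regions with standard errors for the 30 tested histone genes, DN-HCN2 against control (red) and truncated SK3 against control (blue), with filled circles for calls at an adjusted p under 0.05. Filled red circles mark Hist3h2ba, H3f3b, H2afy and H2afv, the only filled blue circle marks Hist3h2ba, and the widest bars belong to Hist-named genes of low count.

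Under truncated SK3, Hist3h2ba was the 1 histone gene of 30 called over both regions, where 0.735% of all lines were called. It was also the only member whose 6 truncated SK3 libraries all stood above the 8 control libraries, as 0.354% of tested genes did. The log2 difference was positive in 25 of 30 members (median 0.39), against 51.0% of all lines (median 0.01), with the same limit on what passed the count filter. The smallest unadjusted p after Hist3h2ba belonged to H1f0. DESeq2 called H1f0 in addition, and limma-voom called H1f0 and the H2B gene Hist2h2bb, all of whose stretches occur in other genes.

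In the single regions Hist3h2ba was again the only member called. The share of all lines called was 0.2% for DN-HCN2 apex, 2.14% for DN-HCN2 base, 0.254% for truncated SK3 apex and 0.147% for truncated SK3 base. H3f3b came nearest in the DN-HCN2 base, with a log2 difference of 0.96 (SE 0.26, edgeR adjusted p = 0.0534). DESeq2 called it there, along with H2afv, H2afy and Hist2h2be. In the DN-HCN2 apex H3f3b differed by 0.74 (SE 0.24, edgeR adjusted p = 0.243), and limma-voom called it.

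DN-HCN2 against truncated SK3 called 0 of 30 histone genes by edgeR, where 0.655% of all lines were called. Unadjusted, 3 members had p under 0.05 (H2afy, Hist2h4 and H3f3b), as did 14.5% of all lines. DESeq2 called H2afy, and limma-voom called none.

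With all 21 libraries fitted, no Hist-named gene other than Hist3h2ba was called by edgeR in any comparison. Hist1h2bc, an H2B gene, had 53.3, 34.0, 67.0 and 75.3 CPM in DN-HCN2 apex and 39.0, 45.0 and 52.3 CPM in truncated SK3 apex, against 21.8, 42.4, 28.8 and 44.8 CPM in control apex. For Hist1h2bc in the base the levels were 45.2, 64.5 and 62.9 CPM under DN-HCN2 and 102, 31.9 and 62.3 CPM under truncated SK3, against 71.0, 49.8, 77.0 and 45.5 CPM in control. Groups overlapped in both regions, and the log2 differences over both were 0.33 under DN-HCN2 (SE 0.23, edgeR adjusted p = 0.437) and 0.25 under truncated SK3 (SE 0.24, edgeR adjusted p = 0.793). All 4 control base libraries of Hist1h2bc stood above all 4 control apex libraries, by 45.5 against 44.8 CPM at the nearest. The log2 difference of base minus apex was 0.82 (SE 0.31, unadjusted p = 0.01648, edgeR adjusted p = 0.801). Hist1h2bc shares 30.6% of its stretches, most with Hist1h2bg.

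Hist2h2be, another H2B gene, with no shared stretches, had 8.23, 13.7, 11.3 and 7.77 CPM in DN-HCN2 apex and 8.10, 4.02 and 5.47 CPM in truncated SK3 apex, against 8.82, 11.2, 10.2 and 3.82 CPM in control apex. Base libraries of Hist2h2be had 3.48, 8.06 and 2.02 CPM under DN-HCN2 and 6.42, 9.45 and 11.4 CPM under truncated SK3, against 12.4, 11.3, 12.9 and 11.8 CPM in control. The DN-HCN2 base libraries lay below all control base libraries, with a log2 difference of -1.42 (SE 0.50, unadjusted p = 0.009926, edgeR adjusted p = 0.128). Over both regions its differences were -0.58 under DN-HCN2 and -0.47 under truncated SK3, and neither was called.

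Hist3h2ba took a larger share of H2B counts under the constructs. Of the counts on the 15 H2B members it held 45.6% to 63.0% in DN-HCN2 apex, 52.9% to 57.3% in truncated SK3 apex and 21.4% to 38.9% in control apex. In the base it held 43.7% to 48.0% under DN-HCN2 and 44.6% to 60.5% under truncated SK3, against 13.2% to 26.5% in control. Shares in construct and control libraries did not overlap. Of the counts on all 55 Hist-named members, Hist3h2ba held between 29.3% and 51.3% in construct libraries, against 9.45% to 27.0% in control libraries.

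**Figure D4:**
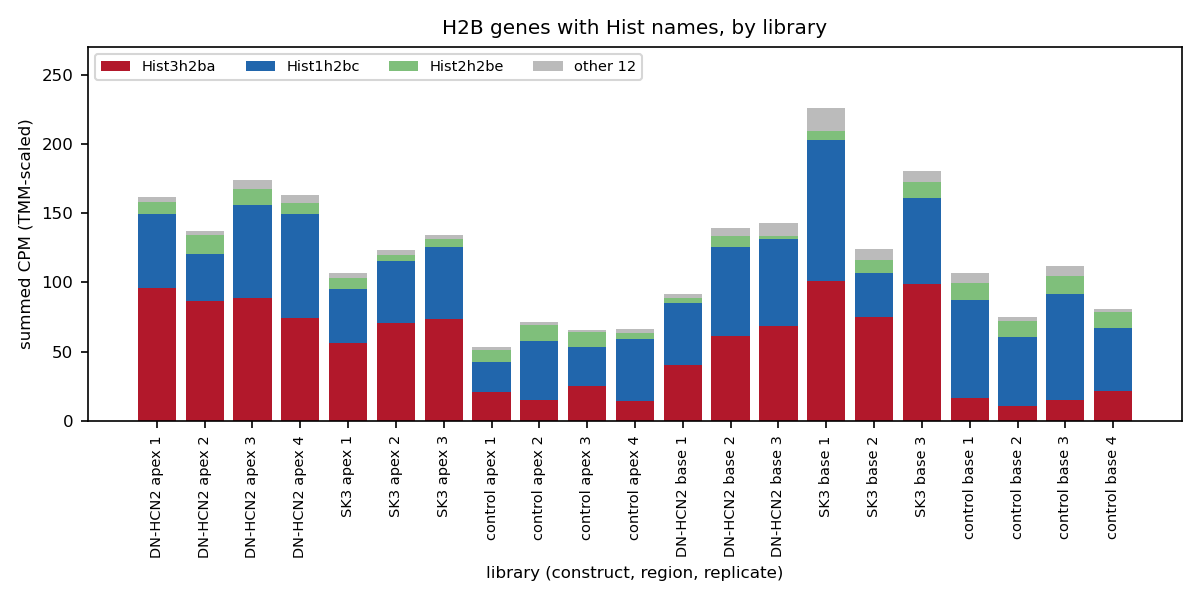
Summed CPM of the 15 H2B genes with Hist names in each library (bars start at 0), parted into Hist3h2ba, Hist1h2bc, Hist2h2be and the other 12. The red Hist3h2ba part spans 40.1 to 101 CPM in construct libraries, against 10.7 to 24.8 CPM in control libraries, and the green Hist2h2be part reaches 13.7 CPM at most.

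The remaining Hist-named genes summed, without Hist3h2ba, to 113 ± 25.6 CPM in DN-HCN2 apex (SD, n = 4), 86.7 ± 8.36 CPM in truncated SK3 apex (n = 3) and 74.2 ± 11.6 CPM in control apex (n = 4). The same 54 genes summed to 119.6 ± 36.3 CPM in DN-HCN2 base (n = 3), 149 ± 55.4 CPM in truncated SK3 base (n = 3) and 114 ± 20.1 CPM in control base (n = 4). The ranges of the 3 base groups overlapped. Over the 13 of these genes that share under 20% of their stretches, truncated SK3 base libraries (42.0 to 53.8 CPM) lay above control base libraries (29.8 to 36.9 CPM). In the apex that sum overlapped, at 15.51 to 26.85 CPM under truncated SK3 and 19.18 to 28.8 CPM in control. DN-HCN2 overlapped control in both regions. Hist1h1c alone gave 19.8 to 34.3 CPM in truncated SK3 base and 9.67 to 20.5 CPM in control base. The 7 replacement-type genes summed to 2065 ± 514 CPM in DN-HCN2 apex and 1853 ± 204 CPM in truncated SK3 apex, against 1438 ± 78.7 CPM in control apex. In the base they summed to 2199 ± 619 CPM under DN-HCN2 and 1720.0 ± 329.8 CPM under truncated SK3, against 1374 ± 126 CPM in control. Sums carry no test, since the members were chosen with earlier results known. The replacement-type sum is led by H3f3b, and the sum of 54 genes includes members that share sequence.

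Hist1h1c, a linker histone H1 gene, had 17.6, 15.9, 9.04 and 19.9 CPM in DN-HCN2 apex and 12.2, 9.41 and 10.7 CPM in truncated SK3 apex, against 14.01, 9.42, 12.1 and 10.6 CPM in control apex. The base libraries had 8.57, 35.5 and 32.6 CPM under DN-HCN2 and 34.3, 22.04 and 19.8 CPM under truncated SK3, against 9.67, 13.3, 14.2 and 20.5 CPM in control. The high DN-HCN2 base libraries were replicates 2 and 3, the pair rich in macrophage markers, and over both regions the log2 difference was 0.63 (edgeR adjusted p = 0.174). Without that pair it was -0.15, from a DN-HCN2 base group of 1 library, replicate 1, the lowest of the 3. Without replicate 1 of DN-HCN2 base it was 0.83 and passed (edgeR adjusted p = 0.03364). Under truncated SK3, base minus apex gave 1.24 (SE 0.43, unadjusted p = 0.009413, edgeR adjusted p = 0.399).

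Hist2h2aa1, an H2A gene, had 6.27, 6.26, 12.4 and 13.1 CPM in DN-HCN2 apex and 6.69, 6.03 and 7.57 CPM in truncated SK3 apex, against 2.94, 3.78, 2.91 and 5.42 CPM in control apex. All construct libraries of the apex stood above all control libraries there, while the base groups, at 5.22, 9.08 and 9.27 CPM under DN-HCN2, 15.4, 5.65 and 13.4 CPM under truncated SK3 and 4.27, 4.59, 6.38 and 4.85 CPM in control, overlapped. Over both regions Hist2h2aa1 differed by 0.99 under DN-HCN2 (SE 0.32, edgeR adjusted p = 0.0665) and by 1.02 under truncated SK3 (SE 0.33, edgeR adjusted p = 0.226). DESeq2 called it under DN-HCN2 (adjusted p = 0.01459). Every 50-base stretch of Hist2h2aa1 and of its neighbour Hist2h2aa2 occurs in another annotated gene, so reads cannot be assigned to either with certainty. Hist2h2aa2 had 2.09, 2.52, 2.74 and 3.21 CPM in DN-HCN2 apex and 1.67, 1.44 and 1.35 CPM in truncated SK3 apex, against 1.70, 2.47, 1.90 and 2.71 CPM in control apex. Its base levels were 1.61, 3.71 and 2.48 CPM under DN-HCN2 and 3.47, 2.18 and 4.84 CPM under truncated SK3, against 2.61, 1.91, 3.05 and 2.603 CPM in control. Constructs overlapped control except in the apex, where truncated SK3 lay below it, and over both regions the log2 differences were 0.15 under DN-HCN2 and -0.05 under truncated SK3, neither called.

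Hist1h1e and Hist1h2be overlap on the same strand, and both were low. Hist1h1e (H1) had 3.85, 1.02, 4.81 and 4.78 CPM in DN-HCN2 apex and 3.17, 3.16 and 3.11 CPM in truncated SK3 apex, against 2.48, 2.32, 1.76 and 1.04 CPM in control apex. Base levels of Hist1h1e were 2.01, 5.75 and 1.93 CPM under DN-HCN2 and 2.04, 1.78 and 3.77 CPM under truncated SK3, against 1.66, 2.26, 1.63 and 0.704 CPM in control. Only in the apex did a construct, truncated SK3, stand clear of control, and over both regions Hist1h1e had log2 differences of 0.98 under DN-HCN2 (SE 0.53) and 0.71 under truncated SK3 (SE 0.54). Hist1h2be (H2B) had 1.24, 0.544, 2.49 and 0.672 CPM in DN-HCN2 apex and 1.67, 0.575 and 0.337 CPM in truncated SK3 apex, against 1.47, 1.47, 1.02 and 1.46 CPM in control apex. Base levels of Hist1h2be were 0.603, 2.87 and 1.01 CPM under DN-HCN2 and 9.99, 4.36 and 3.58 CPM under truncated SK3, against 4.36, 2.12, 3.32 and 1.13 CPM in control. Within each region both constructs overlapped control, and the log2 differences from control were -0.50 under DN-HCN2 (SE 0.61) and 0.24 under truncated SK3 (SE 0.64). None of these passed.

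The 15 remaining tested Hist-named genes had means of at most 1.79 CPM and wide errors. The next 3 genes were chosen after their values were seen. Among the H4 genes, Hist1h4d differed by -1.50 under truncated SK3 (SE 0.64, unadjusted p = 0.02838, edgeR adjusted p = 0.403), and Hist1h4c by 2.75 (SE 1.2, edgeR adjusted p = 0.417). Hist2h4, also an H4 gene, had 0 counts in each of the 3 DN-HCN2 base libraries, so no fold is given, and at most 1.93 CPM elsewhere. No H3 gene with a Hist name was called in any of the 12 comparisons.

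Between regions no histone gene was called by edgeR. Base against apex in control called 0.0% of all lines, with 1 member (Hist1h2bc) and 4.82% of lines at an unadjusted p under 0.05. Under DN-HCN2 0.214% of lines and 0 members were called, with 3 members and 12.1% of lines at an unadjusted p under 0.05. Under truncated SK3 0.0134% of lines and 0 members were called, with 5 members and 9.58% of lines at an unadjusted p under 0.05, among them H2afy at -0.51 (SE 0.18) and H2afx at 0.65 (SE 0.30). The interactions called 0.00668% of lines for DN-HCN2 and 0.0% for truncated SK3, with 0 members in each. At an unadjusted p under 0.05 the DN-HCN2 interaction had 2 members and 6.85% of lines, and the truncated SK3 interaction 0 members and 3.64% of lines. DESeq2 and limma-voom called 0 members in these 5 comparisons.

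None of the genes tested around Hist3h2ba was called higher under either construct. The start of Trim17, an E3 ubiquitin ligase gene of the TRIM family, lies 5765 bases downstream of the Hist3h2ba start. Trim17 spans the H2A gene Hist3h2a on the same strand, which had 0 counts. How reads of this pair were divided is not given, so counts of both are uncertain there. Trim17 was chosen after its values were seen. Its level lay at 4.12 to 11.2 CPM in DN-HCN2 apex and 5.13 to 12.6 CPM in truncated SK3 apex, against 16.6 to 18.9 CPM in control apex. In the base it lay at 3.71 to 6.33 CPM under DN-HCN2 and 6.86 to 13.3 CPM under truncated SK3, against 18.3 to 24.2 CPM in control. Every construct library stood below every control library, as for 0.996% of tested genes under DN-HCN2 and 0.682% under truncated SK3. Trim17 fell by 1.66 on the log2 scale under DN-HCN2 (SE 0.29, edgeR adjusted p = 0.00219), and it differed by -1.16 under truncated SK3 (SE 0.30, edgeR adjusted p = 0.0805), which DESeq2 (adjusted p = 0.006928) and limma-voom (adjusted p = 0.0265) called. Rnf187, 2810021J22Rik, Zfp39 and Trim11, the other tested genes that start within 100000 bases, were not called under either construct.

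**Figure D5:**
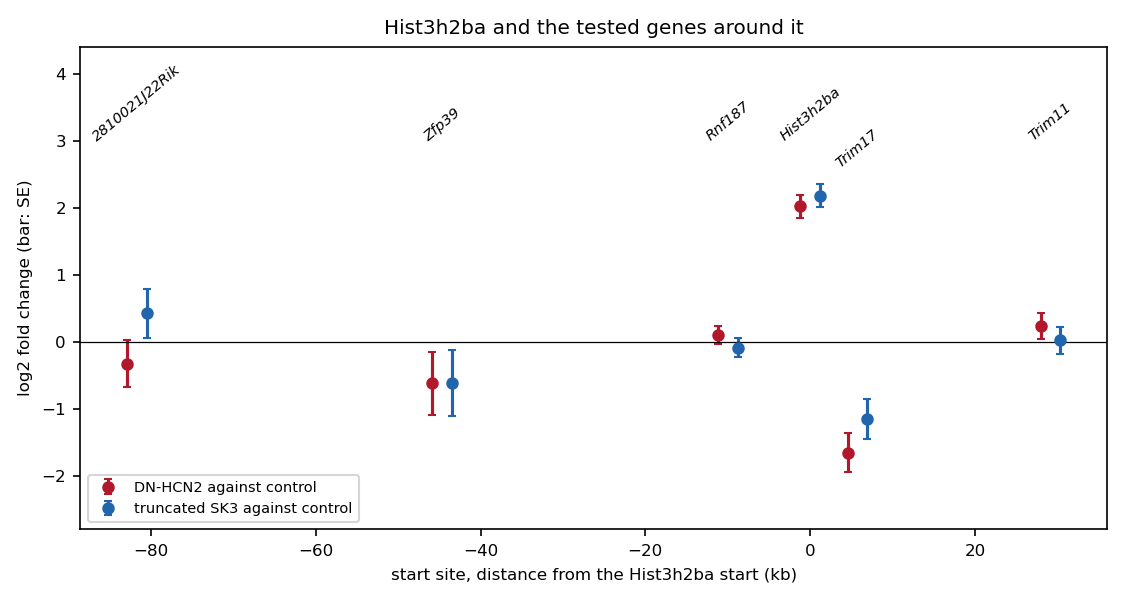
Log2 fold changes over both regions with standard errors for Hist3h2ba and the 5 tested genes that start within 100000 bases of it, against the distance of each start site from that of Hist3h2ba in kb; red is DN-HCN2 and blue truncated SK3, drawn slightly apart. Hist3h2ba stands at 2.02 and 2.18, Trim17 at -1.66 and -1.16 and the others lie within 1 unit of 0.

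Lists of genes that make or handle histones were read against the 6.05% of all lines called under DN-HCN2. In the list of histone mRNA processing and transcription (SLBP, NPAT, the cleavage factors and others), 0 of 18 tested genes rose and 1 fell under DN-HCN2: Cstf2, a cleavage stimulation factor subunit, averaged 37.05 ± 8.29 CPM in DN-HCN2 apex and 63.0 ± 4.77 CPM in control apex (SD, n = 4 each). Its log2 difference of -0.59 (SE 0.17, edgeR adjusted p = 0.03975) became -0.11 with a correction for GC content and length, and 9 of 21 fits without 1 library lost the call. Of 27 chaperone genes, 0 rose and 1 fell: Hjurp, the chaperone of centromeric CENP-A, averaged 8.56 ± 3.15 CPM in DN-HCN2 apex and 25.7 ± 10.7 CPM in control apex, and fell by 1.63 (SE 0.34, edgeR adjusted p = 0.00725). Of 15 deacetylase genes, Hdac2 rose by 0.68 (SE 0.15, edgeR adjusted p = 0.00916) and Hdac11 fell by 0.69 (SE 0.16, edgeR adjusted p = 0.01617). Without the macrophage-rich pair, which leaves 1 library of DN-HCN2 base, the differences were -1.32 for Hjurp, 0.59 for Hdac2 and -0.59 for Hdac11, with edgeR adjusted p between 0.07049 and 0.144.

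Hdac2, a class I deacetylase, was also higher under DN-HCN2 than under truncated SK3, by 0.83 (SE 0.16, edgeR adjusted p = 0.0174). It averaged 288 ± 56.6 CPM in DN-HCN2 apex (SD, n = 4) and 185 ± 23.7 CPM in truncated SK3 apex (n = 3), and 316 ± 39.4 CPM in DN-HCN2 base and 156 ± 56.3 CPM in truncated SK3 base (n = 3 each). That call was lost, at a difference of 0.75, when replicate 1 of truncated SK3 base was left out (edgeR adjusted p = 0.0576), and in 3 of the 10 other settings at 0.74 to 0.84. Other histone genes outside the rule, such as Cenpa and H2afj, gave 0 calls among 5 tested. S phase and division genes gave 0 calls among 24 tested, and their summed level ran from 136 to 396.5 CPM, with the highest in replicate 1 of DN-HCN2 base. Under truncated SK3 over both regions none of these 5 lists had a call.

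Markers of other cells differed in part between the same groups. Under DN-HCN2 over both regions, where 6.05% of all lines were called, 3 of 13 tested Schwann and satellite glia markers fell, among them Cdh19 by 1.78 and Erbb3 by 1.94 on the log2 scale. Of 13 supporting cell markers, 2 rose, Tectb by 5.27 and Fgfr3 by 3.44, and of 11 fibroblast markers Otos rose by 4.36. Of 16 neuron, 15 macrophage, 9 hair cell and 8 endothelial and blood markers, 0 were called in that comparison. Under truncated SK3 over both regions 0 of any of the 7 marker lists were called. In DN-HCN2 base against control (2.14% of lines called), 3 of 15 macrophage and 3 of 13 supporting cell markers rose, and 3 of 13 glia markers fell. Endothelial and blood markers summed to 554 to 3729 CPM in truncated SK3 base, 798 to 2453 CPM in DN-HCN2 base and 16.6 to 1017 CPM in control base. Apex sums were 113 to 4112 CPM under truncated SK3, 26.0 to 1894 CPM under DN-HCN2 and 8.9 to 363 CPM in control. Constructs overlapped control in both regions. In DN-HCN2 apex Hist3h2ba had 96.1 CPM in the library richest in supporting cell markers and 74.2 to 88.8 CPM in the other 3. The part of these cells in the result was not tested.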

How the data were processed

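RNA of about 50 spiral ganglion neurons per library was amplified by Smart-seq2 with an oligo-dT primer, per the labels' protocols. Whole-number counts per gene were deposited by the authors for 21 libraries; Trimmomatic, HISAT2, DESeq2 and the builds GRCm38 and mm10 are named per the submitters' processing notes, while the counter, annotation, strand setting and treatment of shared reads are not given in the sources used here. Smart-seq2 does not mark strand. Totals of 10411634 to 15138780 counts limit precision, and intervals cover the spread between libraries.

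Counts were fitted with edgeR 4.0.16 (TMM, filterByExpr, 1 mean for each of the 6 groups, robust quasi-likelihood F test) in R 4.3.3. Benjamini-Hochberg adjustment ran over 14968 tested lines in each of 12 comparisons, with a call at an adjusted p under 0.05. A comparison over both regions averages apex and base with equal weight. The fit was checked on simulated counts with known changes. The fits were repeated with DESeq2 1.42.0 and limma-voom (limma 3.58.1, quality weights), RLE scaling, every gene with a count, genes at 10 CPM in at least 3 libraries, the compared groups alone, a replicate block and a GC content and length correction. They were also repeated without marker-rich libraries and without each library in turn. Positions, stretch sharing and stem-loops came from GENCODE M21 and promoters from RefSeq (GRCm38.p6, 56 members matched by symbol). Tables and figures were made with Python 3.11.15, pandas 2.3.3 and matplotlib 3.10.9.

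The members, lists and tests were chosen with earlier results of these data known. Values in every library are given for Hist3h2ba, for called members and for the 8 Hist-named members with the highest mean CPM, and at least group ranges for the replacement-type genes. From other lists, genes called over both regions are named, up to 5 for each list and comparison. Some genes that this rule would name are not reported here.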

Additional observations from a re-analysis of the deposited data

Results flagged for a closer look

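Hist1h2be, an H2B gene of low count, was flagged in the control apex group, where replicate 3 had 1.017 CPM and the other 3 libraries lay close together at 1.459 to 1.471 CPM. The gap to the nearest library was 0.975 of the range of the group and passed Dixon's 95% critical value for 4 libraries. Chance flags about 1 in 20 groups, and 45 groups of 4 libraries were checked.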

How the results depend on the processing

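Hist3h2ba kept its direction and its call in all 6 comparisons with control under every alternative run. The fit without macrophage-rich libraries leaves DN-HCN2 base with 1 library, replicate 1, so its values for that group rest on this library. The number of histone genes called under DN-HCN2 over both regions was 4, and it ran from 2 to 5 with 1 library left out, at 2 without replicate 1 or 3 of control apex or replicate 4 of control base. By DESeq2 the number was 6, with H1f0 and Hist2h2aa1 added. It was 3 by limma-voom, with the GC content and length correction, with the replicate block and without the supporting cell-rich libraries. In the DN-HCN2 apex it was 1, with a range of 1 to 2 (2 without replicate 3 of DN-HCN2 apex), and 2 by limma-voom. In the DN-HCN2 base it was 1, with a range of 1 to 2 (2 without replicate 1 or 3 of DN-HCN2 apex, replicate 3 of DN-HCN2 base or replicate 2 of truncated SK3 base). There it was 2 with the filter of 10 CPM, by limma-voom, without the supporting cell-rich libraries and without the macrophage-rich ones (1 library against 4), and 5 by DESeq2. Under truncated SK3 over both regions the count of 1 became 2 by DESeq2, 3 by limma-voom and 2 with only the groups compared. DN-HCN2 against truncated SK3 gave 1 call by DESeq2. The cause of these shifts was not tested.

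Log2 differences from control near 0 changed sign under some alternatives. Corrected for GC content and length, H2afx was at -0.11 under DN-HCN2 and -0.03 under truncated SK3, H2afz at -0.01 under DN-HCN2 and Hist2h2aa2 at -0.16 under DN-HCN2. Without the macrophage-rich libraries, with 1 library in DN-HCN2 base, Hist1h1c was at -0.15 and Hist2h2aa2 at -0.19 under DN-HCN2. With 1 library left out under DN-HCN2, H2afx ran from -0.01 to 0.3 and Hist2h2aa2 from -0.02 to 0.27. With 1 library left out under truncated SK3, H2afy ran from -0.01 to 0.12, H2afx from -0.1 to 0.22, Hist2h2aa2 from -0.21 to 0.06 and Hist1h2be from -0.23 to 0.43.

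Class sums depend on members that share at least 20% of their stretches. Without them the Hist-named genes other than Hist3h2ba averaged 30.91 CPM in DN-HCN2 apex, 21.33 CPM in truncated SK3 apex, 25.37 CPM in control apex, 36.09 CPM in DN-HCN2 base, 47.42 CPM in truncated SK3 base and 33.47 CPM in control base. Replacement-type genes averaged 1453 CPM in DN-HCN2 apex, 1292 CPM in truncated SK3 apex, 915.1 CPM in control apex, 1178 CPM in truncated SK3 base and 909.7 CPM in control base. Their average in DN-HCN2 base is not reported here.

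Replicate numbers were not taken to pair the libraries: 6 of 48 same-numbered pairs had deviations correlated over 0.1, against 11 of 135 pairs with different numbers, and 8 of 21 libraries correlated best with their own number. With the replicate block, 3 members instead of 4 were called under DN-HCN2 over both regions, as H2afv was at 0.63 (edgeR adjusted p = 0.07045). Under truncated SK3 the block put Hist2h2aa2 at 0.03 and Hist1h2be at -0.02, and the member counts of the other comparisons were the same. Depth leaves the 32 untested members below what could be compared.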
